A study of Mus musculus with 4 samples.

Results

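The expression of 37 imprinted genes was followed in mouse cells with and without Snai1, a gene that encodes a transcriptional repressor of the Snail family. The genes were taken as a list, chosen with earlier results of these data known. They were grouped by the imprinted locus they belong to, 14 loci in all, and by the parental allele known to be expressed. That is the paternal allele for 18 and the maternal allele for 19 of them. Of the 37 genes, 29 were measured by a probe set paired with that gene alone, among 17097 genes on the array. A probe set is the group of probes read as a single value, and the brightest probe set by mean level stood for a gene. Rtl1, Dio3, H19, Peg10, Asb4 and Nnat had no probe set paired with them in the annotation used here, and Mest and Igf2r were only in probe sets paired with several genes, so these 8 have no value.

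The cells came from embryonic stem cells grown as embryoid bodies, clusters in which stem cells differentiate on their own, and sorted with an anti-Flk1 antibody. Flk1 is the product of Kdr and marks early mesoderm and blood vessel precursors. The 4 groups were the Flk1+ and Flk1- cells of a control line labelled F/F and those of a Snai1 knockout line, and each group had 1 array. All groups were taken from embryoid bodies at day 4, except that the source name of the knockout Flk1- sample gives day 5 while its description gives day 4. The labels do not say whether each line is a single clone or whether the fractions of a line came from 1 culture.

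With 1 array a group there was no spread between replicates, no test was run, and no difference below has a replicate check. All levels are log2 expression values and all differences are log2 differences between 2 arrays, so that 1 stands for 2-fold. A gene was taken to have signal above a floor of 3.19, the 40th percentile over genes and arrays, and 10195 to 10302 genes were above it on an array. Snai1 itself was at 2.56 and 2.42 in control Flk1+ and Flk1- cells and at 1.88 and 1.94 in the knockout ones. All these levels were below the floor and cannot serve as a check of the genotype. Kdr was at 8.92 and 9.03 in the Flk1+ and at 4.55 and 3.88 in the Flk1- cells of control and knockout, as the sort labels say.

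An imprinted gene is expressed mainly from the allele inherited from 1 parent, because that allele and its partner carry different DNA methylation since the germ line. Most such genes lie in clusters that share an imprinting control region, and a cluster often pairs protein-coding genes of a parental allele with a long non-coding RNA of the opposite allele. Many of them act on growth of the embryo and placenta, and several are held low in undifferentiated stem cells and switched on as mesoderm and endoderm form. The probe sets read RNA of both alleles together, so the parental allele given with a gene is what is known of it and was not measured here. For Ascl2, Tssc4, Cd81, Nap1l4, Zim1, Ube3a, Asb4, Ppp1r9a, Grb10, Dcn and Gnas the imprint is known to be limited to some tissues, such as placenta or neurons, or to differ between tissues.

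Of the 29 measured genes, 25 were above the floor, and these 25 were above it on all 4 arrays, so none entered a comparison through a single group. The other 4, Zim1, Mkrn3, Dcn and Gnas, were below the floor on all 4 arrays, with levels from 1.56 to 3.06. Dcn encodes the matrix proteoglycan decorin, and its level was 2.75 to 3.06. For Gnas, which encodes a signalling G protein subunit, a single probe set was paired with the gene alone, so its low level, 1.82 to 1.95, concerns that probe set and not the whole transcription unit.

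Dlk1, Plagl1, Cdkn1c and Ascl2 were the members at least 2-fold apart between the genotypes in a sorted fraction. Promoter sequences of Dlk1, Plagl1 and Ascl2 are shown because these members are among the few that carry the genotype difference. They are RefSeq windows on GRCm38.p6 from 250 bases before to 50 bases after the annotated start, in the direction of transcription, for Dlk1 at chr12:109452573-109452872 (plus strand), Plagl1 at chr10:13090582-13090881 (plus strand) and Ascl2 at chr7:142969215-142969514 (minus strand). Each begins upstream of the gene and ends in its first transcribed bases. Capitals mark 2 motifs searched on both strands, CAGGTG with its reverse complement CACCTG, the E-box form bound by Snail proteins, and TGCCGC with its reverse complement GCGGCA, the hexamer bound by ZFP57, a protein that maintains imprints. The motifs do not overlap each other.
Dlk1: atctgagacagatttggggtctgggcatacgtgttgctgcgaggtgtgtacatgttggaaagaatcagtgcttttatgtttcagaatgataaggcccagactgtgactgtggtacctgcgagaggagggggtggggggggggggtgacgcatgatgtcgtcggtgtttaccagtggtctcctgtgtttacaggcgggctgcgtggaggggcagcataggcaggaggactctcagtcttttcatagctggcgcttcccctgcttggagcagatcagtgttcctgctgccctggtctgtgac
Plagl1: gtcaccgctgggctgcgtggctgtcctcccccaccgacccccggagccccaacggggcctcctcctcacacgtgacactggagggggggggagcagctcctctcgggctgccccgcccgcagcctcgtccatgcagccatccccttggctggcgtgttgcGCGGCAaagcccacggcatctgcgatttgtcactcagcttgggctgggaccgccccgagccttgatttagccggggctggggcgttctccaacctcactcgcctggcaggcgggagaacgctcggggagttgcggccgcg
Ascl2: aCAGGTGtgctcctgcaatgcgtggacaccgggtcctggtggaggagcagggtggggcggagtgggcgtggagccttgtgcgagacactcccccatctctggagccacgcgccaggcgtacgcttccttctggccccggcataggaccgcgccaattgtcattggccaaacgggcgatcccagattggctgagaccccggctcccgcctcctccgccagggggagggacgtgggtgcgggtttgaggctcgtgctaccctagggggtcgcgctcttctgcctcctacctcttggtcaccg

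The Ascl2 window holds a single CAGGTG, whose first base is at -249 from the start, and the Plagl1 window a single GCGGCA, at -90. The Dlk1 window holds neither. Among the 21 of the 25 members above the floor that had a window, 2 had CAGGTG or CACCTG (Ascl2 and Snrpn, 9.52%), against 22.6% of 27025 genes with a window. For TGCCGC or GCGGCA the count was 5 of 21 (Meg3, Igf2, Snrpn, Grb10 and Plagl1, 23.8%), against 13.1% of all genes with a window. A gene counted if any of its windows held the motif. Igf2 and Snrpn had 4 windows each and Meg3 and Grb10 had 2 each, which gives them more places for a match. The CG dinucleotides in these windows numbered 9 for Dlk1, 26 for Plagl1 and 23 for Ascl2, and the median over the 21 members was 13, against 8 over all genes, taking the richest window of a gene. A match of letters is a description of the window and does not show binding.

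The range of a member over the 4 arrays had a median of 0.53, and 11 of the 25 had a range under 0.5, while the median range of all genes above the floor was 0.39. The members with a range of at least 1 were Dlk1 (3.65), Ascl2 (2.40), Cdkn1c (1.88), Phlda2 (1.83) and Plagl1 (1.72). The knockout Flk1- array held the lowest level of 14 of the 25 members, the knockout Flk1+ array of 6, the control Flk1+ array of 5 and the control Flk1- array of 0. Among all genes above the floor, the shares with the lowest level on these arrays were 24.7%, 34.4%, 23.9% and 17.0%, in the same order.

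**Figure D1:**
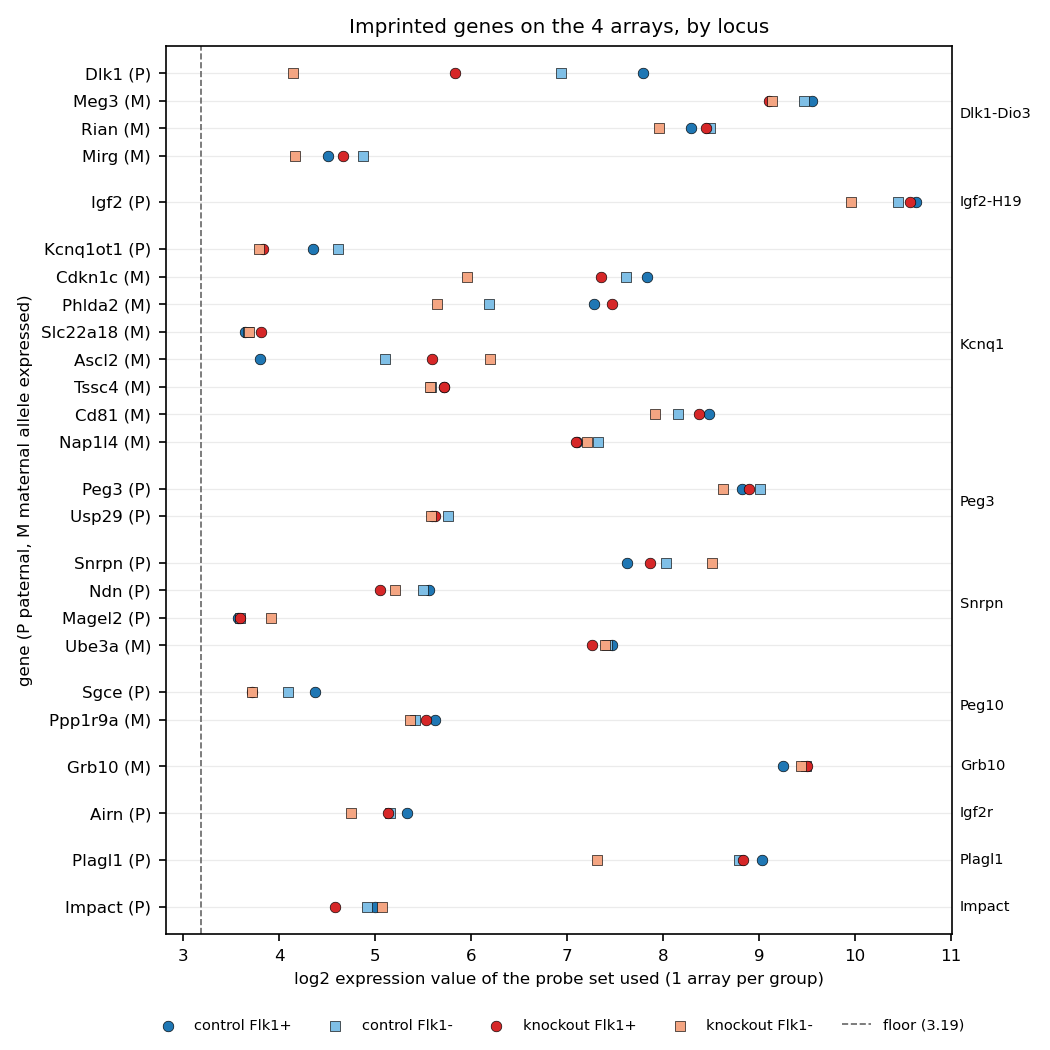
Log2 expression value (x axis) of each of the 25 imprinted genes above the floor (y axis, grouped by locus, with P or M for the parental allele known to be expressed) on each of the 4 arrays. The dashed line is the floor at 3.19. The point of knockout Flk1- cells lies to the left of the other points for 14 of the 25 genes, and it is far to the left for Dlk1, Cdkn1c and Plagl1.

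At the Dlk1-Dio3 locus, Dlk1 is the paternally expressed protein-coding gene and encodes a transmembrane protein of the Delta family that restrains differentiation of several cell types. Its level was 7.79 and 6.94 in control Flk1+ and Flk1- cells and 5.84 and 4.15 in the knockout ones. Both knockout levels were below both control levels, and within each genotype the Flk1- level was the lower. The log2 difference between knockout and control was -1.96 in Flk1+ cells, a 3.88-fold lower level, and -2.79 in Flk1- cells, a 6.91-fold lower level. In such bulk samples fewer cells that express a gene and less RNA per cell cannot be told apart. Dlk1 was the member furthest apart between the genotypes in either fraction. It was read by a single probe set, of the _s_at type, which can match more than a single transcript.

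Meg3, Rian and Mirg are long non-coding RNAs expressed from the maternal allele of the same locus, and the latter pair carry small nucleolar RNAs and microRNAs. Meg3 was at 9.55, 9.48, 9.10 and 9.14 in the order control Flk1+, control Flk1-, then the knockout fractions alike, so its knockout levels were lower by 0.45 in Flk1+ and 0.34 in Flk1- cells, small differences beside those of Dlk1. Its 10 probe sets had genotype differences from -0.74 to 0.23 in Flk1+ cells and from -0.62 to 0.16 in Flk1- cells. Rian was at 8.29, 8.49, 8.45 and 7.96 in the same order of groups, and Mirg at 4.51, 4.88, 4.66 and 4.17. Both were lowest in knockout Flk1- cells, with differences from control of -0.53 and -0.71 there and of 0.16 and 0.15 in Flk1+ cells. The other 3 probe sets of Rian had differences of -0.08, -0.21 and -0.16 in Flk1+ cells, and with the mean of probe sets the values of Rian were -0.07 in Flk1+ and -0.30 in Flk1- cells. The direction of Rian in Flk1+ cells therefore depends on the probe set. Mirg was read by a single probe set. Thus no maternally expressed RNA of this locus reached the 2-fold size at which Dlk1 stood, and in Flk1- cells all 4 measured genes of the locus, of both parental alleles, were lower in the knockout.

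Plagl1 encodes a zinc finger transcription factor, expressed from the paternal allele, that restrains proliferation and is known to act on other imprinted genes. Its level was 9.03 and 8.80 in control Flk1+ and Flk1- cells and 8.84 and 7.31 in the knockout ones. Only the knockout Flk1- array stood apart, and the other 3 arrays lay within 0.24 of each other. The genotype difference was -0.20 in Flk1+ cells and -1.48, or 2.8-fold lower, in Flk1- cells. The probe set used was of the _x_at type. The other probe set of Plagl1, at 5.73, 5.33, 4.79 and 3.79, had differences of -0.94 in Flk1+ and -1.53 in Flk1- cells, so the probe sets gave a like difference in Flk1- cells and unlike ones in Flk1+ cells.

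Cdkn1c, at the Kcnq1 locus, encodes the cell cycle inhibitor p57 and is expressed from the maternal allele. Its level was 7.84 and 7.62 in control Flk1+ and Flk1- cells and 7.36 and 5.96 in the knockout ones. As for Plagl1, the knockout Flk1- array was the low one. The genotype difference was -0.48 in Flk1+ cells and -1.65, or 3.15-fold lower, in Flk1- cells. Kcnq1ot1, the paternally expressed non-coding RNA that silences genes of this locus on its own chromosome, was also lower in the knockout, at 3.83 against 4.36 in Flk1+ cells and 3.80 against 4.61 in Flk1- cells. Its 6 probe sets had differences from -0.53 to 0.85 in Flk1+ cells and from -0.89 to 0.12 in Flk1- cells. Both positive values came from a probe set above the floor on 1 array alone. It was at 2.41, 2.49, 3.25 and 2.61 in the order control Flk1+, control Flk1-, then the knockout fractions alike. The other probe sets, some below the floor on all arrays, were lower in the knockout in both fractions. With the mean of probe sets the differences were -0.12 in Flk1+ and -0.41 in Flk1- cells.

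Ascl2 went the other way. It encodes a basic helix-loop-helix transcription factor needed for the placenta, and at the Kcnq1 locus it is the maternally expressed gene whose imprint is known from placenta. Its level was 3.80 and 5.10 in control Flk1+ and Flk1- cells and 5.60 and 6.20 in the knockout ones. Both knockout levels were above both control levels, and within each genotype the Flk1- level was the higher. The difference was 1.79, or 3.47-fold higher in the knockout, in Flk1+ cells and 1.10, or 2.14-fold higher, in Flk1- cells. A further probe set of Ascl2, at 3.88, 4.48, 4.78 and 5.26, had smaller differences of 0.90 and 0.78, and the last was below the floor on all arrays. With the mean of its probe sets Ascl2 was therefore under 2-fold, at 0.89 in Flk1+ and 0.62 in Flk1- cells.

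Phlda2, the maternally expressed gene of a small pleckstrin homology protein that limits growth of the placenta, followed the sort more than the genotype. Its level was 7.28 in control Flk1+ and 7.47 in knockout Flk1+ cells, against 6.19 and 5.65 in control and knockout Flk1- cells. Both Flk1+ levels were above both Flk1- levels. Among the remaining genes of the locus, Slc22a18, an organic cation transporter gene, ranged from 3.65 to 3.82 and Tssc4 from 5.57 to 5.72. The histone chaperone gene Nap1l4 ranged from 7.09 to 7.32. The tetraspanin gene Cd81 had a wider range, from 7.92 to 8.48. It was 0.32 higher in control and 0.46 higher in knockout Flk1+ cells than in the Flk1- cells. The genes of the Kcnq1 locus thus did not share a direction: in Flk1- cells 6 of its 8 genes were lower in the knockout, with Cdkn1c 2-fold lower and Ascl2 2-fold higher, and Slc22a18, at 0.0046, turned to -0.05 after median centring.

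Igf2, the paternally expressed growth factor gene of the Igf2-H19 locus, was at 10.64 and 10.45 in control Flk1+ and Flk1- cells and at 10.58 and 9.96 in the knockout ones. The knockout Flk1- level was the lowest, with a genotype difference of -0.48 in Flk1- and -0.06 in Flk1+ cells. The other probe set of Igf2 was at 10.29, 10.02, 10.27 and 9.18, with differences of -0.84 and -0.02. Airn, the paternally expressed non-coding RNA that silences Igf2r, was at 5.34, 5.16, 5.13 and 4.75 in the same order. Airn and Kcnq1ot1 overlap Igf2r and Kcnq1 on the opposite strand, and the sources used here do not say whether the labelled cDNA kept the strand. Grb10, a signalling adaptor that restrains insulin and IGF receptor signals, was at 9.25, 9.49, 9.50 and 9.44 with the probe set used. Its other probe sets were further apart, at 7.50, 7.69, 8.08 and 7.54 and at 6.45, 6.88, 7.16 and 6.52, highest in knockout Flk1+ cells. The genotype difference of Grb10 in Flk1+ cells was thus 0.25 with the probe set used, 0.58 and 0.71 with the others and 0.515 with their mean.

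At the Peg3 locus, Peg3, a paternally expressed zinc finger gene, was at 8.82, 9.01, 8.90 and 8.63 in the order control Flk1+, control Flk1-, then the knockout fractions alike. Usp29, of a ubiquitin-specific protease family, was at 5.59, 5.76, 5.63 and 5.58. In both genes the knockout Flk1- level was the lowest, by small margins. Sgce, the paternally expressed epsilon-sarcoglycan gene of the Peg10 locus, was at 4.37, 4.10, 3.71 and 3.72, lower in the knockout by 0.66 in Flk1+ and 0.37 in Flk1- cells. Its other probe set was below the floor. Ppp1r9a, a neurabin gene of the same locus, ranged from 5.36 to 5.63.

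The Snrpn locus, known from Prader-Willi and Angelman syndromes, did not follow Dlk1, Plagl1 and Cdkn1c. Snrpn, a paternally expressed gene of a spliceosome protein, was at 7.62 and 8.04 in control Flk1+ and Flk1- cells and at 7.87 and 8.51 in the knockout ones. Its knockout Flk1- level was the highest, with a genotype difference of 0.25 in Flk1+ and 0.48 in Flk1- cells, and its 3 probe sets had differences of 0.43 to 0.48 in Flk1- cells. Magel2 and Ndn, paternally expressed genes of MAGE proteins, differed by 0.32 and -0.30 in Flk1- cells and by 0.03 and -0.51 in Flk1+ cells. Ube3a, a ubiquitin ligase gene, ranged from 7.26 to 7.47. Impact, a paternally expressed inhibitor of the kinase GCN2, differed by -0.42 in Flk1+ and 0.16 in Flk1- cells.

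**Figure D2:**
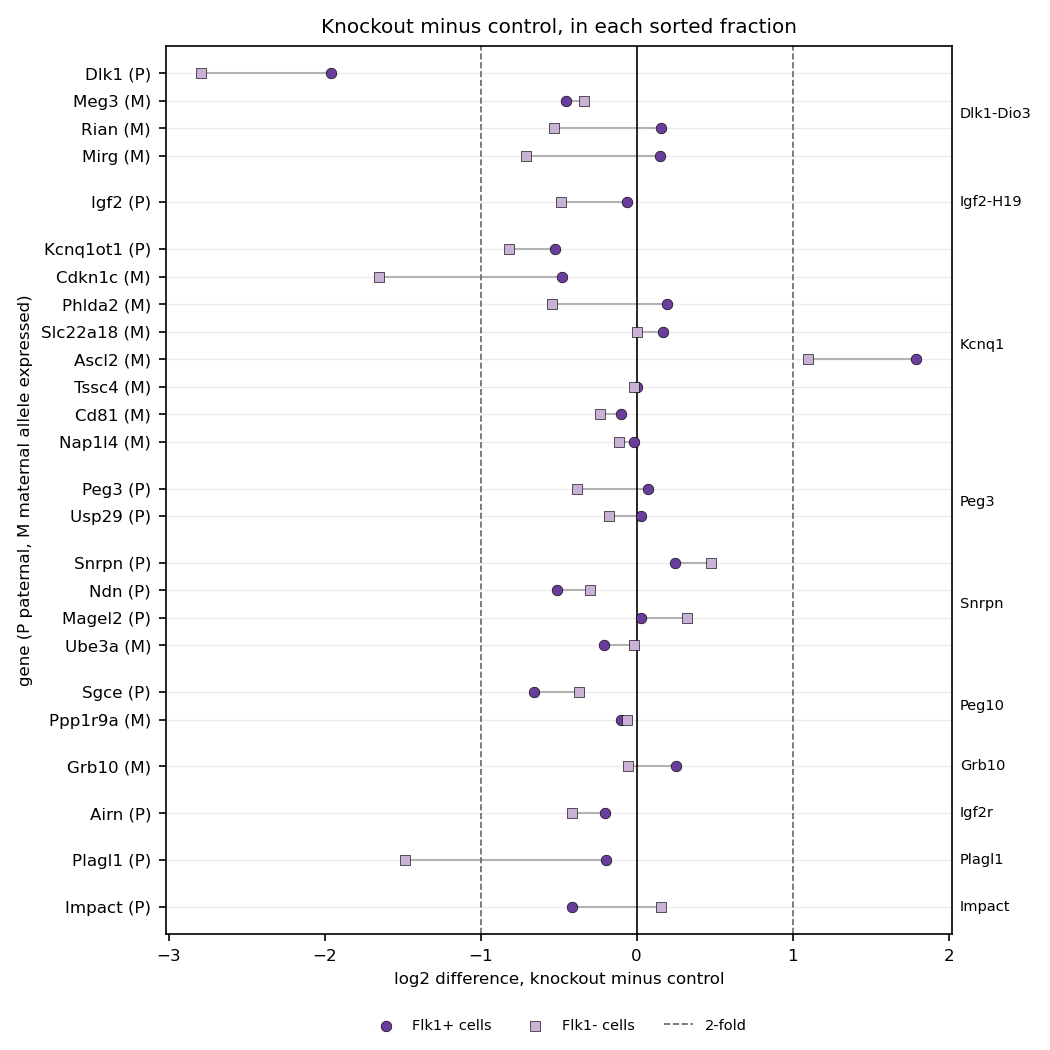
Log2 difference of knockout minus control (x axis) for the 25 imprinted genes (y axis, by locus), with circles for Flk1+ and squares for Flk1- cells joined by a line, and dashed lines at 2-fold. Dlk1 lies at -1.96 and -2.79 and Ascl2 at 1.79 and 1.10, while Cdkn1c and Plagl1 pass 2-fold in Flk1- cells alone.

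Over all members, 2 of 25 were at least 2-fold apart between the genotypes in Flk1+ cells, where 1.85% of 10655 genes were. These were Dlk1, lower as 0.976% of all genes were, and Ascl2, higher as 0.873% were. In Flk1- cells 4 of 25 were, where 1.34% of 10533 genes were, with Dlk1, Cdkn1c and Plagl1 lower (0.949% of all genes were 2-fold lower) and Ascl2 higher (0.389%). Lower by any amount in Flk1- cells were 20 of 25 members, against 43.1% of all genes, and in Flk1+ cells 14 of 25, against 57.4%. The median member difference was -0.30 in Flk1- cells, against 0.04 over all genes, and -0.06 in Flk1+ cells, against -0.05. In Flk1+ cells the members as a group thus had about the median of all genes, with Dlk1 and Ascl2 far from it on either side. Because the members were chosen with earlier results of these data known, these shares and medians describe the list and test nothing.

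By parental allele, the 12 paternally expressed genes had a median difference of -0.38 in Flk1- cells, with 9 lower, and the 13 maternally expressed genes had a median of -0.11, with 11 lower. In Flk1+ cells the medians were -0.20 with 8 of 12 lower and 0.0018 with 6 of 13 lower. The 2-fold members were of both kinds, with Dlk1 and Plagl1 paternal and Cdkn1c and Ascl2 maternal. The 18 members imprinted in many tissues had medians of -0.40 in Flk1- and -0.13 in Flk1+ cells, and the 7 with a tissue-limited imprint had medians of -0.06 and -0.02. Whether the alleles or these classes differ was not tested, and the counts are small.

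The genotype differences of the fractions share no array. Subtracting the Flk1- from the Flk1+ genotype difference gave a value above 0 for 17 of 25 members, with a median of 0.21, against 41.3% of all genes and a median of -0.07. The value was at least 1 in size for 2 members, Plagl1 (1.29) and Cdkn1c (1.18), and for 1.58% of all genes. With its other probe set Plagl1 had genotype differences of -0.94 in Flk1+ and -1.53 in Flk1- cells, less than 1 apart. The 1.29 of Plagl1 thus depends on the probe set. The values for Mirg, Dlk1, Phlda2, Ascl2 and Rian were 0.86, 0.83, 0.73, 0.70 and 0.69. For Ascl2 this means a larger excess in knockout Flk1+ cells, and for the others a lower knockout level in Flk1- cells than in Flk1+ cells relative to control. The most negative value was that of Impact, at -0.57.

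The sort comparison asked whether imprinted genes go with Flk1. In control cells 2 of 25 members were 2-fold apart, where 2.7% of 10622 genes were, Phlda2 by 1.09 (2.13-fold higher in Flk1+ cells, as 1.2% of all genes were 2-fold higher) and Ascl2 by -1.30 (2.46-fold lower, as 1.51% were 2-fold lower). Dlk1 was 0.86 higher in control Flk1+ cells, and 14 of 25 members were higher by any amount, against 48.2% of all genes. In knockout cells 4 of 25 were 2-fold apart, where 3.79% of 10688 genes were, and these 4 were higher in Flk1+ cells, as 1.62% of all genes were, while 0 members and 2.17% of all genes were lower. Higher by any amount were 16 of 25 members, against 41.4% of all genes. The 4 were Phlda2 (1.83, 3.55-fold), Dlk1 (1.69, 3.22-fold), Plagl1 (1.52, 2.88-fold) and Cdkn1c (1.40, 2.64-fold). Plagl1 and Cdkn1c were only 0.24 and 0.22 higher in control Flk1+ cells, and the sort and genotype comparisons that show them apart share the knockout Flk1- array. Igf2 was 0.61 higher in knockout Flk1+ cells with the probe set used and 1.09 higher with its other probe set, and Plagl1 was 1.001 higher with its other probe set.

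In the sort comparisons the median member difference was 0.07 in control and 0.13 in knockout cells, against -0.01 and -0.08 over all genes. Centring each array on the median of genes above the floor moved the median of all genes in the knockout from -0.08 to 0.09 and that of the members to 0.28, so the members stood 0.21 above all genes in the deposited values and 0.20 after centring. The genes 2-fold higher and lower in knockout Flk1+ cells numbered 173 and 232 as deposited and 223 and 147 after centring. The 4 members were 2-fold higher under both.

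**Figure D3:**
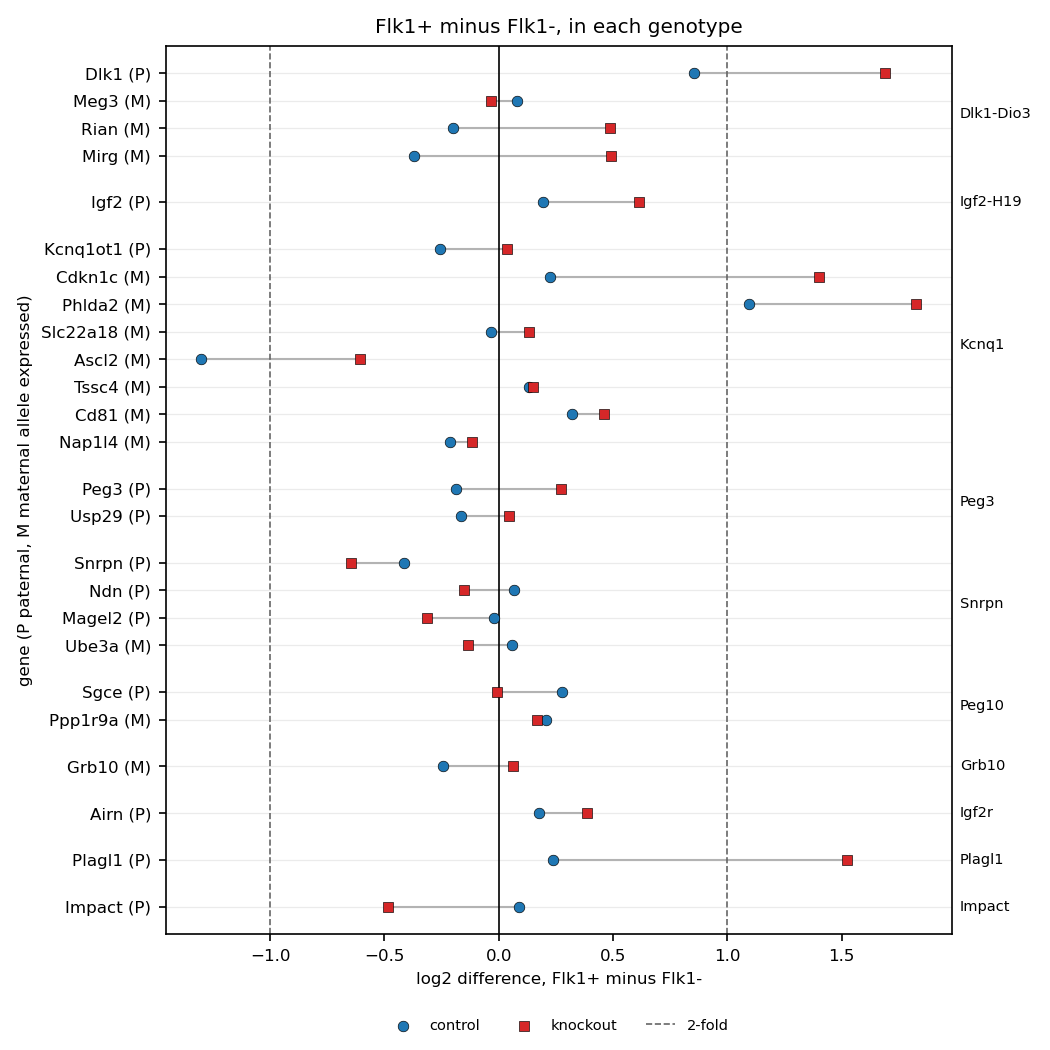
Log2 difference of Flk1+ minus Flk1- cells (x axis) for the 25 imprinted genes (y axis, by locus), with circles for control and squares for knockout cells and dashed lines at 2-fold. Phlda2 is right of 1 in both genotypes, at 1.09 and 1.83, and Dlk1, Cdkn1c and Plagl1 pass 2-fold in knockout cells alone.

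Genes with several probe sets show how far a value depends on the probes. Of the 29 measured genes 15 had more than 1 probe set and 14 had 1. Across all genes with 2 probe sets above the floor, the standard deviation between probe sets of a gene was 0.24 for the genotype difference in Flk1+ cells and 0.20 in Flk1- cells, and a gap of 2-fold or more between them was seen in 0.932% and 0.559% of 3968 and 3937 genes. This spread is between probe sets on the same arrays and does not stand for replicates. The Dlk1, Cdkn1c and Phlda2 differences rest on a single probe set each.

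**Figure D4:**
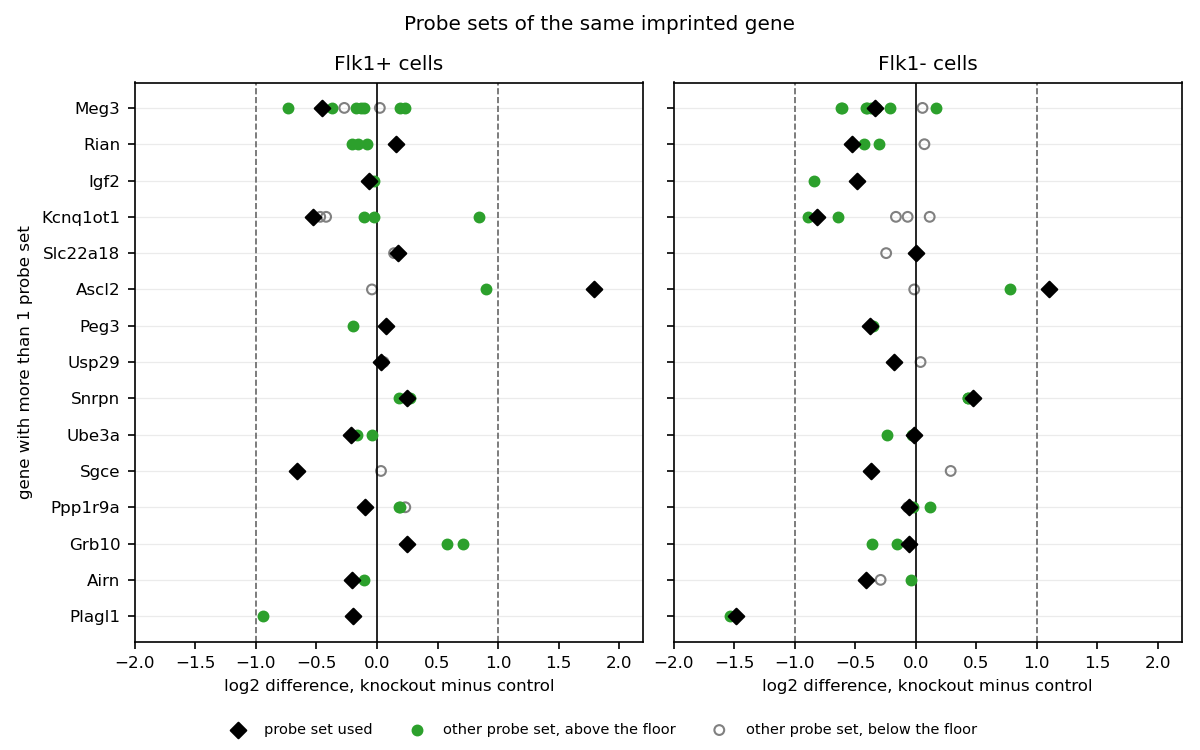
Log2 difference of knockout minus control (x axis) for each probe set of the 15 imprinted genes with more than 1 probe set (y axis), in Flk1+ cells on the left and Flk1- cells on the right. Diamonds mark the probe set used, filled circles other probe sets above the floor on an array compared and open circles those below it. The Plagl1 probe sets lie together at -1.48 and -1.53 in Flk1- cells and apart at -0.20 and -0.94 in Flk1+ cells, and the probe sets of Ascl2 above the floor lie right of 0 in both.

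Markers of cell types that an embryoid body can hold also differed between the arrays. The 13 markers of cardiac and lateral plate mesoderm, all named on the array, had a summed level (log2 of the sum of linear values) of 10.55 and 10.32 in control Flk1+ and Flk1- cells and of 9.31 and 8.84 in the knockout ones. This order of arrays is that of Dlk1, but it held for the summed level only. The mean log2 level was 5.88, 5.90, 4.76 and 4.29 in the same order of groups. In the control, 7 of 12 markers above the floor were lower in Flk1+ than in Flk1- cells, unlike Dlk1. Between the genotypes, 5 of 11 markers above the floor were 2-fold lower in knockout Flk1+ cells and 6 of 12 in knockout Flk1- cells. Tbx5 was below the floor on all 4 arrays. The 9 primitive erythroid markers named had summed levels of 7.41, 11.50, 6.09 and 6.10 in the same order, and 7 of 9 were 2-fold lower in knockout Flk1- cells.

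The 9 pluripotency markers named had summed levels of 6.84, 9.63, 8.20 and 10.42. Of those above the floor, 5 of 6 were higher in knockout Flk1+ cells, all 5 by 2-fold, as 0.873% of all genes were. In knockout Flk1- cells 9 of 9 were higher, 2 of them by 2-fold, as 0.389% of all genes were. The summed level was lowest in control Flk1+ and highest in knockout Flk1- cells, as Ascl2 was, while the middle arrays had the opposite order. The 9 fibroblast or feeder cell markers named had summed levels of 7.90, 6.65, 6.69 and 6.03, with 2 to 4 of them above the floor on an array. Col1a2, Lum, Thy1, Lox and Fap were below it on all 4. The 4 above the floor were lower in the knockout in both fractions, 3 of them 2-fold in Flk1+ and 1 in Flk1- cells. They were higher in Flk1+ cells in 4 of 4 cases in the control and 2 of 3 in the knockout. Of visceral endoderm markers above the floor, 4 of 8 were lower in knockout Flk1+ (1 by 2-fold) and 4 of 7 in knockout Flk1- cells (2 by 2-fold). Of 3 neural markers above the floor 0 were 2-fold apart between the genotypes. Trophoblast markers matter for Ascl2, and the 8 named had summed levels of 9.66, 8.79, 7.99 and 7.90, led on all but the knockout Flk1- array by Hand1, which is also a mesoderm gene. The trophoblast marker Elf5 was at 2.84 to 3.11 and Tpbpa at 2.07 to 2.23, both below the floor on all arrays. Krt7 was 0.74 and 0.85 higher in knockout than in control Flk1+ and Flk1- cells, the direction of Ascl2. Gata3 was 0.83 and 0.27 higher and Tfap2c 0.10 and 0.96 higher. The control levels of Krt7 (2.84 and 3.03) and the control Flk1+ level of Gata3 (3.07) were below the floor, so the sizes of these differences are uncertain. Hand1 differed by -2.49 and -3.21, opposite to Ascl2, Cdx2 by -0.31 and -0.05, and Eomes by -0.82 and 0.35. The part of these cell types in the differences of imprinted genes was not tested.

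Genes at or around the imprinted loci were also listed as neighbours, 92 in all, of which 80 were named and 56 above the floor in a genotype comparison. For those found in the reference gene table, 0 to 37 coding genes lay between a neighbour and the nearest member. Whether a neighbour is itself imprinted was not looked at, so the list is not a set of genes free of imprints. In Flk1+ cells 0 of 56 were 2-fold apart and in Flk1- cells 1 was, Phactr2, near Plagl1 with 2 other coding genes between them by start site. Phactr2 encodes a phosphatase and actin regulator, and its level was 5.11 and 4.71 in control Flk1+ and Flk1- cells and 4.50 and 3.52 in the knockout ones. The knockout Flk1- level was the lowest, as for Plagl1, with a difference from control of -1.19. Sf3b5, the coding gene next to Plagl1, was at 6.70, 6.77, 6.83 and 6.79, close together on all arrays. Tspan32, next to Ascl2, was at 4.34, 4.40, 4.59 and 4.22 and did not share the order of Ascl2. The median difference of the neighbours was -0.06 in Flk1+ and -0.02 in Flk1- cells. In the sort comparisons 0 of 56 neighbours were 2-fold apart in the control and 1 of 57 in the knockout, Slc25a13, a mitochondrial carrier gene of the Peg10 locus, by -1.10.

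Of 28 genes that set or keep imprints, 25 were named. The maintenance methyltransferase gene Dnmt1 ranged from 6.67 to 7.06, and Trim28, the corepressor that ZFP57 recruits, was at 9.06, 9.16, 8.89 and 9.21 in the order control Flk1+, control Flk1-, then the knockout fractions alike, close together on all arrays. In the genotype comparisons 1 of 23 was 2-fold apart in Flk1+ cells and 0 of 25 in Flk1- cells. The gene apart was Dppa3, which protects methylation in the early embryo and is also a pluripotency marker, at 3.14, 6.94, 4.66 and 7.68. Just under 2-fold were 2 others. The methyltransferase gene Dnmt3b was 0.98 and 0.51 higher in knockout Flk1+ and Flk1- cells. Dnmt3l, a cofactor gene of de novo methylation, was 0.17 and 0.99 higher. Lower in the knockout by any amount were 18 of 23 regulators in Flk1+ and 8 of 25 in Flk1- cells, against 57.4% and 43.1% of all genes. In the sort comparisons 2 of 25 regulators were 2-fold lower in Flk1+ than in Flk1- cells of the control and 4 of 25 in the knockout. Dppa3 and Zfp42, a pluripotency gene at 1.72, 3.96, 2.15 and 4.59, were lower in both genotypes. Dnmt3l and Hells, a chromatin remodeller gene, were lower in knockout Flk1+ cells, by sort differences of -1.42 and -1.35.

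Of 13 other genes of the IGF pathway, which carries the Igf2 signal, 11 were named and 10 above the floor. The receptor genes Igf1r and Insr were 0.58 and 0.41 lower in knockout than in control Flk1- cells, and the genes of the RNA binding proteins Igf2bp1 and Igf2bp3 differed by -0.16 and -0.04. The IGF binding protein genes were further apart. Igfbp3 was at 2.49, 3.82, 4.58 and 5.20 in the order control Flk1+, control Flk1-, then the knockout fractions alike, below the floor in control Flk1+ cells alone, and Igfbp2 was at 6.76, 7.84, 8.06 and 8.36. Both had the same order over the arrays as Ascl2. Igfbp4 was at 10.04, 8.82, 9.79 and 7.15, lowest in knockout Flk1- cells with a difference of -1.68 from control, and Igfbp5 was at 5.31, 6.25, 6.94 and 6.01. In all, 3 of 10 were 2-fold higher in knockout Flk1+ cells, and in Flk1- cells 1 was higher and 1 lower. Igf1, the other IGF ligand gene, was at 4.61, 3.20, 4.52 and 3.18, near or below the floor in Flk1- cells of both genotypes and higher in Flk1+ cells.

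**Figure D5:**
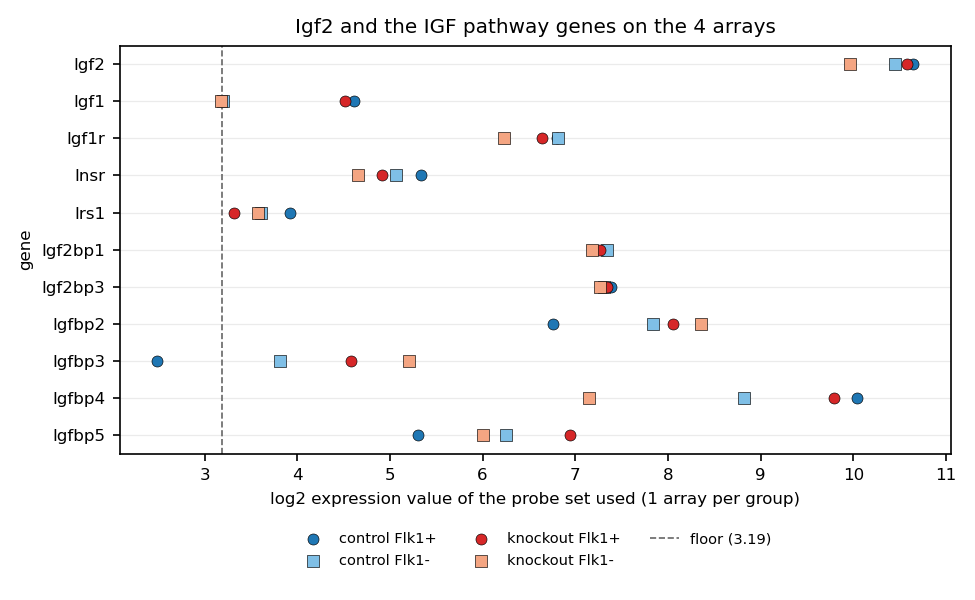
Log2 expression value (x axis) of Igf2 and of the 10 other IGF pathway genes above the floor (y axis) on the 4 arrays, with the floor at 3.19 as a dashed line. The binding protein genes Igfbp2, Igfbp3, Igfbp4 and Igfbp5 have their points far apart, and those of Igf2bp1 and Igf2bp3 lie together.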

How the data were processed

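RNA of 4 samples was measured on 4 Affymetrix arrays, after amplification of cDNA from 50 ng of total RNA per the labels' protocols. The authors deposited log2 expression values of 45141 probe sets, and these were used as they stand. The tools named, per the submitters' processing notes, are RMA and limma, without version or role. Control probe sets, 104 in number, were dropped. The platform annotation gave 1 gene for 28898 of the rest, several for 551 and none for 15588. A gene was represented by its brightest probe set, by mean over the 4 arrays. Of 17097 genes, 16936 matched the reference gene table and 0 symbols changed.

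A difference was counted at 2-fold (log2 of at least 1) where either of the 2 arrays had the gene above the floor. With 1 array a group no test was possible and the number of arrays limits the precision. The counting was run on simulated data with differences planted in genes well above the floor. That checks the arithmetic of the rule and not the calls made here. The rule for names was all 37 members, and of the neighbour, regulator and IGF lists the genes 2-fold apart, up to 5 a comparison, and coding genes next to a 2-fold member. Other list genes named here (Dnmt1, Dnmt3b, Trim28, Insr, Igf1r, Igf2bp1, Igf2bp3 and the trophoblast markers) were chosen after their values were seen. The members, lists and motifs were chosen with earlier results of these data known. Alternatives were a 1.5-fold rule, other floors, quantile normalization, median centring, cyclic loess (span 0.3, 3 rounds, limma 3.58.1, R 4.3.3), the mean of probe sets, the omission of _s_at and _x_at probe sets, and members imprinted in many tissues only. Python 3.11.15 was used.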

Additional observations from a re-analysis of the deposited data

Results flagged for a closer look

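Mirg, a non-coding RNA of the Dlk1-Dio3 locus, was picked out because its sort difference had opposite signs in the genotypes. Flk1+ minus Flk1- was -0.37 in control and 0.49 in knockout cells on the log2 scale, each larger than the spread between probe sets in its comparison (0.22 and 0.29). Mirg was read by 1 probe set and each group had 1 array, so the difference between the genotypes was not tested.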

How the results depend on the processing

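The median member difference for the genotype ranged from -0.40 to -0.24 in Flk1- cells and from -0.13 to -0.0018 in Flk1+ cells over the alternatives run, and in Flk1+ cells the median of members minus that of all genes changed sign, from -0.02 to 0.0070, without _s_at and _x_at probe sets. The count of 2-fold members in the Flk1+ genotype comparison went from 2 to 1 with the mean of probe sets (Ascl2 lost), to 1 without _s_at and _x_at probe sets (Dlk1 has no other probe set) and to 1 with members imprinted in many tissues only (Ascl2 not among them). In the Flk1- genotype comparison it went from 4 to 3 with the mean of probe sets and to 3 without _s_at and _x_at probe sets. It was 3 as well with members imprinted in many tissues only. In the control sort it went from 2 to 1 with the mean of probe sets and to 1 with members imprinted in many tissues only. In the knockout sort it went from 4 to 3 without _s_at and _x_at probe sets. At the 1.5-fold rule the counts were 3 in Flk1+ and 6 in Flk1- cells between the genotypes. In the sort comparisons they were 3 in control and 7 in knockout cells. Of 496 single member values under alternatives, 493 stayed on their side of 2-fold, and the other 3 were of Ascl2 with the mean of probe sets, where they were no longer 2-fold. The spread between probe sets was reached or passed by the move of 17 values, 15 with the mean of probe sets and 2, both of Plagl1, without _s_at and _x_at probe sets. The sign changed for 22 values, 2 of which moved by that spread or more, the sort differences of Ppp1r9a with the mean of probe sets (-0.25 in control and -0.12 in knockout cells).

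No paired analysis was possible because each group has 1 array and no replicate number. For the same reason no replicate was left out. Without the knockout Flk1- array, whose labels name both day 4 and day 5, the Flk1- genotype and the knockout sort comparisons cannot be made, and Cdkn1c and Plagl1 are 2-fold apart in no comparison that does not use it. Signal near the floor limits Slc22a18, Magel2, Sgce, Kcnq1ot1 and the control Flk1+ level of Ascl2 (3.80), which enters its largest differences.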
